A study of Mus musculus with 12 samples.

Results

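Interferon-stimulated antiviral genes were examined in pre-adipocytes grown with or without macrophages. The set comprised 32 listed genes of the antiviral programme, and its members were found through the probes of the array that carry their names. A probe was present for 30 of them, and all 30 passed the filter on dim probes (signal well above background, in Cy5 or Cy3, on 3 or more arrays), as did 13812 of 20886 named genes in all. Mx1 and Mx2 had no matching probe and were not analysed here.

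RNA was taken from 3T3-L1 pre-adipocytes (3T3L-1 in the labels), mouse fibroblasts able to become adipocytes, lying in the lower well beneath an insert with RAW264.7 cells, a mouse macrophage line. Each of the 12 dual-colour arrays set these co-cultured cells, in Cy5, against cells grown alone, in Cy3, under the same treatment and for the same time. Cultures received 100 µM cortisol with 100 µM serotonin (CS), 100 µM cortisol (C), 100 µM serotonin (S) or no treatment (NT) for 6 h, 24 h or 48 h, and hormones were dissolved in DMSO. There was 1 array per condition, all in the same dye orientation, so that any bias of a probe towards a dye enters its ratio on every array, and each slide held the arrays of 1 time, so that time and slide cannot be told apart. No condition had a replicate array and the labels describe no separate cultures. The 4 treatments of a time therefore served as replicates, with treatment as a term of the model, and a p-value reflects only the residual spread of these 12 arrays, which may be technical. In RNA of whole wells, fewer cells of a type and less RNA per cell cannot be told apart.

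Cells that sense viral nucleic acid secrete type I interferon, which binds a receptor built of Ifnar1 and Ifnar2. Signalling from the receptor leads to a complex holding Stat2 and Irf9, which binds the interferon-stimulated response element (ISRE) of target promoters, whereas interferon gamma acts through another element, the gamma-activated site (GAS). The targets include the sensors and transcription factors of the pathway itself, proteins that block viral RNA or its translation, the ubiquitin-like modifier Isg15 and chemokines that attract T cells. Cortisol is a glucocorticoid, a class of hormones known to dampen inflammatory gene expression.

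Promoter windows from RefSeq (assembly GRCm38.p6), reaching from 250 bases before to 50 bases after the start, were available for 24 of the 32 listed genes. The ISRE core, which is GAAA, any 2 bases and GAAA again, was searched on both strands. It occurred in 11 of these 24 members, against 3.99% of all genes with a window. Its extended form, in which CT follows the core directly and each match of which is also a match of the core, occurred in 6 of 24 members, against 0.303% of all genes. The GAS motif TTCNNNGAA occurred in 6 of 24 members, against 9.55% of all genes, and it can overlap an ISRE match. A match describes these letters only and is not a measured binding site. Members whose window held no match, among them Samd9l, Uba7, Oasl1, Oasl2, Xaf1 and Ifi44, are not shown. The stretches below belong to 7 members chosen for display, each with a match. They are written 5′ to 3′ on the strand of the gene, and carry in capitals the letters of the motif matches of the window that lie in them. They are Ifit1 at chr19:34640758-34640838 (plus strand), Ifit3 at chr19:34583346-34583441 (plus strand), Isg15 at chr4:156200850-156200921 (minus strand), Rsad2 at chr12:26456538-26456597 (minus strand), Cxcl10 at chr5:92349066-92349127 (minus strand), Oas1a at chr5:120907526-120907648 (minus strand) and Irf1 at chr11:53769899-53769957 (plus strand).
Ifit1: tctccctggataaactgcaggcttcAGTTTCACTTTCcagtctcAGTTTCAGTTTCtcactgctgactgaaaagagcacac
Ifit3: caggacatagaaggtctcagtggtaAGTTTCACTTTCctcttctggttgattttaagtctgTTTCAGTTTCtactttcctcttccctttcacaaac
Isg15: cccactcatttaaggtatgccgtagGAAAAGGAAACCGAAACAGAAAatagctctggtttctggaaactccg
Rsad2: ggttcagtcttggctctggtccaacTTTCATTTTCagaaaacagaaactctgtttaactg
Cxcl10: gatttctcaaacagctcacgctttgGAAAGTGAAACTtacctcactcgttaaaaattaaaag
Oas1a: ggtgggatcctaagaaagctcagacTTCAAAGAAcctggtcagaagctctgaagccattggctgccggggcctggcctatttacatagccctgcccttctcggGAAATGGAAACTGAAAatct
Irf1: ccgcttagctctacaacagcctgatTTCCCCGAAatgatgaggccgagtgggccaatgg
In Ifit1, Ifit3 and Rsad2 the capitals spell the ISRE core as read on the opposite strand. Isg15 held 3 overlapping core matches between positions -78 and -57 relative to its start. Oas1a held a GAS match and 2 overlapping core matches, and Irf1 held a GAS match and no ISRE core.

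Some arrays did not carry the hormone signature of their label in the Cy3 channel. In Cy5 the level of Zbtb16, a gene induced by glucocorticoids, went with the labels, at a log2 level of 8.96 on the array labelled S at 6 h, 8.95 on S at 24 h and 10.9 on CS at 24 h. In cells grown alone it stood at 10.7 on the array labelled S at 6 h and 10.6 on the array labelled S at 24 h, although these cultures are labelled as free of cortisol. It stood at 9.17 on the array labelled CS at 24 h. The other C and CS arrays ran from 11.3 to 11.4 and the NT arrays from 8.36 to 8.73. Tsc22d3, Fkbp5 and Per1, 3 further glucocorticoid targets, were likewise raised above NT in Cy3 on both S arrays and low on the CS array. At 48 h both channels went with their labels. Labels were kept. For the members, results without these 3 arrays are given below for most tests.

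The labelled cell type was present: 13 or 14 of 16 fibroblast genes lay well above background on all 4 arrays of a time in both channels. Of 22 macrophage genes 21 had a probe, with a summed linear signal of 24610 to 31260 in co-culture and 19610 to 33010 in cells alone, with 1 of its spots left out on the S array at 6 h. In co-culture 11, 12 and 11 of these genes were well above background on all 4 arrays of 6, 24 and 48 h. In cells alone 8, 8 and 11 were. Only the Fc receptor Fcgr1 and the complement subunits C1qa and C1qc were not well above background on any array. Of 10 adipocyte genes, 2 were well above background on all 4 arrays of each time in co-culture. In cells alone 2, 2 and 3 were at 6, 24 and 48 h. Adipoq and Lep were not above background on any array of either channel. Of 39429 probes, 19673 to 22638 an array were well above background in Cy5, and 18050 to 21114 in Cy3. No member was saturated, the Bst2 spot was left out on the CS array at 24 h, and Cxcl9 was the dimmest member, with 1 to 3 of 4 arrays of a time well above background in Cy5 and 2 to 4 in Cy3.

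**Figure D1:**
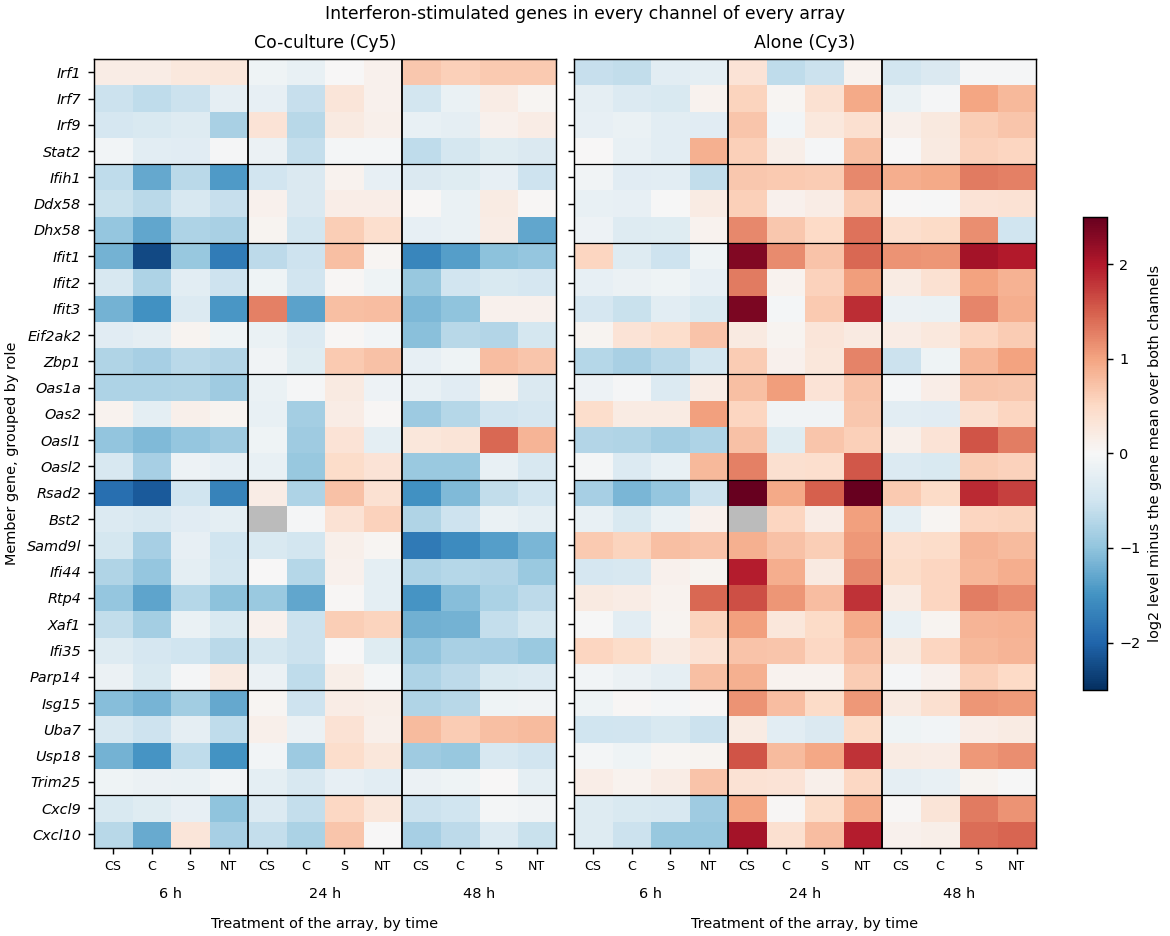
Log2 level of the 30 measured members (rows, grouped by role) in co-cultured cells (Cy5, left) and cells grown alone (Cy3, right) on the 12 arrays (columns, by treatment and time), each minus the mean of the gene over both channels; grey marks the spot left out. Irf1, Uba7 and Oasl1 are the members whose left panel is reddest at 48 h, while the right panel turns red for most members at 24 and 48 h, most of all on the NT and CS arrays at 24 h and the NT and S arrays at 48 h.

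The comparison of co-cultured cells with time matched cells grown alone gave more members lower than higher beside macrophages at each time. At 6 h, 12 of 30 members were lower, against 5.27% of all genes tested, and 1 was higher, against 4.39%. At 24 h, 19 of 30 were lower (3.7% of all genes) and 0 higher (4.68%). At 48 h, 21 were lower (16.9% of all genes) and 2 higher (14.6%). Calls required a change of at least 1.5-fold with an adjusted p (Benjamini-Hochberg, over all genes) under 0.05, and values given with ± below are log2 changes with the SE of the limma fit to 12 arrays. The median log2 ratio of the members was -0.45 at 6 h, -0.70 at 24 h and -0.88 at 48 h, whereas that of all genes was -0.02, 0.00 and -0.01 at the same times. The ratio lay below 0 on 4 of 4 arrays for 23 of 30 members at 6 h (34.1% of all genes), 18 of the 29 complete members at 24 h (28.1%) and 24 of 30 at 48 h (38.8%). Centring each array on its median without loess moved the median of all genes to 0.23, 0.39 and -0.16 at the 3 times and that of the members to -0.07, -0.15 and -1.09. Under that scaling 5 members were lower and 3 higher at 6 h, 9 lower and 2 higher at 24 h, and 21 lower and 1 higher at 48 h. The shares of all genes called under it are not given here. Calls were lost there for Samd9l, Isg15, Oas1a, Ifit3, Ifih1, Rsad2 and Xaf1 at 6 h, for Samd9l, Oasl2, Ifi35, Ifit3, Dhx58 and Oasl1 at 24 h, and for Bst2 and Uba7 at 48 h.

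Among the RNA-binding effectors, Ifit1, which recognises foreign RNA by its end, showed the lowest ratio at 48 h. On the CS, C, S and NT arrays its log2 ratio was -1.73, -1.93, -0.44 and -1.66 at 6 h. It was -2.96, -1.70, 0.03 and -1.39 at 24 h, and -2.74, -2.48, -3.10 and -2.94 at 48 h. Every array but S at 24 h was thus below 0, and at 48 h every array was below every array of 6 h. The fit gave -1.44 ± 0.29 at 6 h (adjusted p = 0.00174), -1.50 ± 0.29 at 24 h (adjusted p = 0.00146) and -2.82 ± 0.29 at 48 h (adjusted p = 4.62e-06), the last a signal 7.05-fold lower in co-culture. Its relative Ifit3 was lower at all 3 times, and Ifit2 at 24 and 48 h. Probes may not tell Ifit3 from its close copy Ifit3b. Eif2ak2, the kinase that halts translation when it binds double-stranded RNA, stood at -0.53 ± 0.08 at 6 h and -0.34 ± 0.08 at 24 h, short of 1.5-fold, and was lower at 48 h at -1.14 ± 0.08 (adjusted p = 2.4e-07). Zbp1, a sensor that can start cell death, was not called at any time, and its second probe gave -0.59 at 48 h where the probe used gave -0.01.

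Of 8 measured antiviral effectors, 5, 6 and 8 were lower at 6, 24 and 48 h. Rsad2 (viperin), an enzyme whose product stops viral RNA synthesis, had ratios of -1.06, -0.94, 0.47 and -1.13 on the CS, C, S and NT arrays at 6 h. At 24 h these were -2.78, -1.73, -0.76 and -2.32, and at 48 h -2.17, -1.58, -2.48 and -2.20. The S array had the highest of the 4 ratios at 6 and 24 h and the lowest at 48 h. The fit gave -0.67 ± 0.23 at 6 h (adjusted p = 0.0341), -1.90 ± 0.23 at 24 h (adjusted p = 9.04e-05) and -2.11 ± 0.23 at 48 h (adjusted p = 9.43e-06), and the call at 6 h was lost without the NT, the C or the CS array of that time. Rtp4, an interferon-induced transporter of receptors, had ratios between -2.46 and -0.79 at 6 h, -2.54 and -0.75 at 24 h, and -2.08 and -1.60 at 48 h, below 0 on 12 of 12 arrays. It was lower at every time, with -1.48 ± 0.24, -1.94 ± 0.24 and -1.80 ± 0.24 at 6, 24 and 48 h. Samd9l, a restriction factor, had ratios of -2.20, -2.04, -2.23 and -1.95 at 48 h, and it was lower then by -2.10 ± 0.10 (adjusted p = 1.49e-08), against -1.17 ± 0.10 at 6 h and -0.997 ± 0.10 at 24 h. Both of its probes went the same way at each time. Ifi35 was lower at all 3 times, reaching -1.50 ± 0.10 at 48 h (adjusted p = 2.06e-07). Bst2 (tetherin), which holds budding virus at the cell surface, was called at 48 h only, at -0.65 ± 0.09, and not without the S array of 48 h. Whether the ratio changed with time was tested separately.

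In the branch around Isg15, a ubiquitin-like protein attached to other proteins, ratios of Isg15 were -0.95, -1.19, -0.81 and -1.30 on the CS, C, S and NT arrays at 6 h. They were -1.06, -1.28, -0.30 and -0.95 at 24 h, and -0.97, -1.09, -1.22 and -1.16 at 48 h, so that all 12 arrays were below 0. Isg15 was lower at 6 h (-1.06 ± 0.10, adjusted p = 2.15e-05), at 24 h (-0.90 ± 0.10, adjusted p = 5.87e-05, but 0.39 under median centring without loess) and at 48 h (-1.11 ± 0.10, adjusted p = 2.3e-06). Usp18, which removes Isg15 and restrains the interferon receptor, was lower at 6, 24 and 48 h, with -1.19 ± 0.14, -1.34 ± 0.14 and -1.34 ± 0.14. Uba7, the enzyme that activates Isg15 for conjugation, went the other way at 48 h. Its ratios of 0.90, 0.70, 0.58 and 0.58 then lay above 0 on every array, and the fit gave 0.69 ± 0.11 (adjusted p = 0.00016), which median centring without loess left at 0.36 and not called. Trim25, a ubiquitin ligase that acts on the RNA sensor Ddx58, was lower at 24 h at -0.61 ± 0.07 but stood at 0.47 under median centring.

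Among the transcription factors, Irf1 was the member that was higher in co-culture at 6 and 48 h. Its ratios were 0.76, 0.81, 0.53 and 0.52 on the CS, C, S and NT arrays at 6 h, and 1.14, 0.96, 0.67 and 0.69 at 48 h. At 24 h they spread between -0.45 on the CS array and 0.54 on the S array. The fit gave 0.66 ± 0.13 at 6 h (adjusted p = 0.00154, not called without the CS array of that time) and 0.87 ± 0.13 at 48 h (adjusted p = 9.17e-05). Stat2 was lower at 48 h by -0.77 ± 0.12, and Irf7, which drives interferon genes, and Irf9, the DNA-binding part of the ISRE complex, were not called at any time. Of the cytosolic RNA sensors, Ifih1 (Mda5) reached -1.45 ± 0.11 at 48 h with ratios between -1.78 and -1.25. Ddx58 (RIG-I) stood at -0.50 ± 0.07, -0.36 ± 0.07 and -0.15 ± 0.07 at 6, 24 and 48 h and was not called, with a second probe at -0.58 at 48 h. In the OAS family, some of whose members signal to RNase L, Oas1a was lower at 6 h (-0.71 ± 0.12) and 24 h (-0.74 ± 0.12, but 0.22 under median centring). In that family 3 of 4 members were lower at 24 h and 2 at 48 h. A second probe of Oas1a gave mean ratios of -0.17, -0.42 and -0.63 at 6, 24 and 48 h, short of 1.5-fold at 6 and 24 h. Probes may not tell Oas1a from its close copy Oas1g. The chemokines Cxcl9 and Cxcl10 were not called at 6 h and were both lower at 24 and 48 h, but the call of Cxcl9 at 24 h was lost without the C or the CS array of that time, where its ratio of -0.63 moved to as little as -0.34. Cxcl10 ratios ran from -0.72 to 1.25 at 6 h, from -2.67 to -0.08 at 24 h and from -2.01 to -0.80 at 48 h.

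Across the 3 times, 10 members were lower at each: Dhx58, Ifi35, Ifih1, Ifit1, Ifit3, Isg15, Rsad2, Rtp4, Samd9l and Usp18. The share of all genes lower at each time was not counted, but it cannot exceed the 3.7% lower at 24 h. Of these, Ifit1, Rtp4 and Usp18 were also called at each time under median centring without loess. When each array was left out in turn, 9 of the 13 calls at 6 h, 15 of 19 at 24 h and 19 of 23 at 48 h were kept every time. Without the 3 arrays in doubt, 15 members were lower at 6 h and 23 at 24 h, and the medians were -0.58 and -0.82. The share of all genes called in that fit is not given here.

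**Figure D2:**
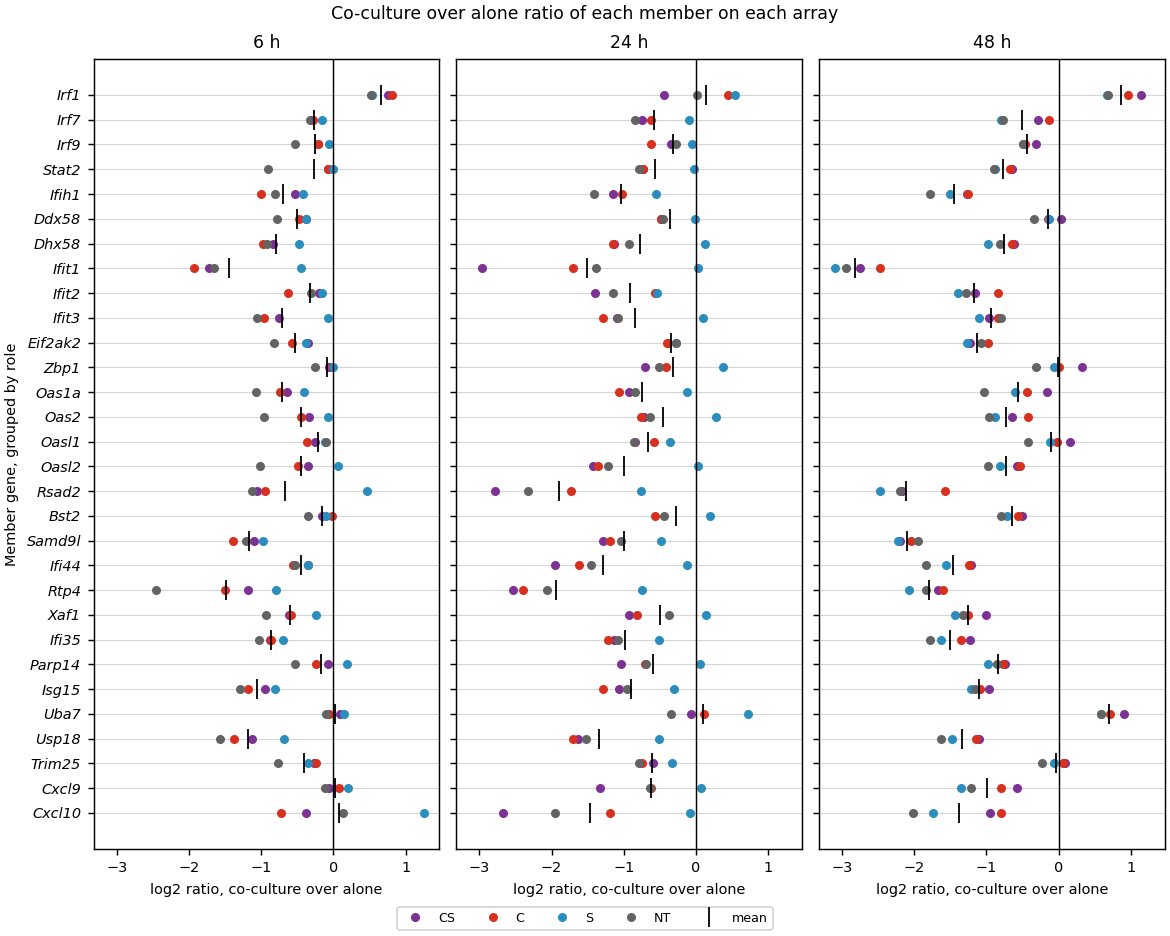
Log2 ratio of co-cultured cells over cells grown alone for each of the 30 members (rows) at 6, 24 and 48 h (panels), 1 point per array coloured by treatment, with a bar at the mean of the 4 arrays. Ifit1, Rsad2, Samd9l and Rtp4 lie furthest below 0 at 48 h, Irf1 and Uba7 above 0, and at 24 h the S array has the highest ratio of the 4 for each of the 29 members measured on all 4.

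Because a ratio moves with either of its channels, each channel was compared with 6 h on its own. Levels given below are log2 signals of a single channel after normalization between arrays, which can be compared between arrays for a gene but not between genes. At 24 h over 6 h, 11 of 30 members were higher and 0 lower in co-cultured cells (5.34% of all genes called higher, 3.56% lower), with a median change of 0.47, and 18 were higher and 0 lower in cells grown alone (5.65% of all genes called higher, 5.57% lower), with a median of 0.82. Both channels called 10 members: Dhx58, Ifih1, Ifit1, Ifit3, Isg15, Oas1a, Oasl1, Rsad2, Usp18 and Zbp1. The share of all genes higher in both channels was not counted, but it cannot exceed the 5.34% higher in co-cultured cells. At 48 h over 6 h, 7 members were higher and 3 lower in co-cultured cells (13% of all genes called higher, 15.7% lower), and 13 were higher and 0 lower in cells alone (6.57% called higher, 7.28% lower). The medians at 48 h were 0.23 in co-cultured cells and 0.54 in cells alone. Feature Extraction's processed signals scaled to each channel's median gave 11 higher and 1 lower in co-cultured cells at 48 h. All 4 arrays of 48 h lay above all 4 of 6 h for 9 of 29 complete members in co-cultured cells (20.4% of all genes) and for 13 of 29 in cells alone (12.1%), and below them for 5 in co-cultured cells (27.2%) and 1 in cells alone (22%).

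**Figure D3:**
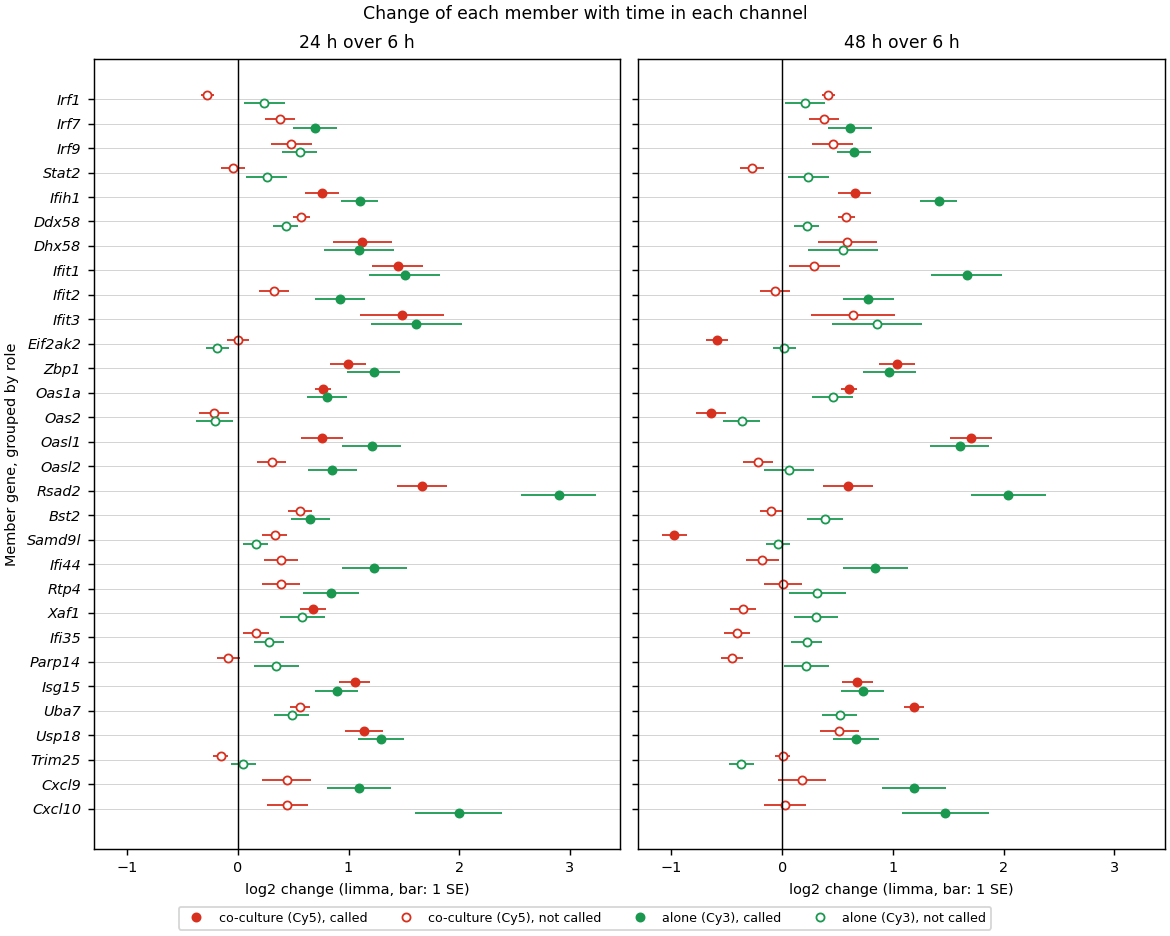
Log2 change of each member at 24 h (left) and 48 h (right) over 6 h in co-cultured cells (red, Cy5) and in cells grown alone (green, Cy3), with bars of 1 SE from limma and filled points for called changes. Red points lie to the left of green ones for Rsad2, Cxcl10, Ifi44, Ifit2 and Cxcl9 at both times and for Ifit1 at 48 h, and to the right for Uba7 at 48 h.

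Rsad2 had the largest change with time in cells grown alone among the members. Its level in co-cultured cells was 10.17, 9.98, 11.58 and 10.40 on the CS, C, S and NT arrays at 6 h, 12.26, 11.28, 12.80 and 12.45 at 24 h, and 10.54, 10.97, 11.44 and 11.57 at 48 h. In cells alone it was 11.24, 10.92, 11.10 and 11.53 at 6 h, 15.03, 13.02, 13.56 and 14.77 at 24 h, and 12.71, 12.55, 13.92 and 13.77 at 48 h. The later arrays of co-cultured cells overlapped with 6 h at both times, whereas those of cells alone did not. In co-cultured cells the change was 1.67 ± 0.23 at 24 h (adjusted p = 0.000608) and 0.60 ± 0.23 at 48 h (adjusted p = 0.0428), and the call at 48 h was lost when any of 7 arrays was left out. In cells alone it was 2.90 ± 0.34 at 24 h (adjusted p = 0.000397) and 2.04 ± 0.34 at 48 h (adjusted p = 0.00157).

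Ifit1 rose in both channels at 24 h and in cells alone at 48 h. Its level in co-cultured cells was 10.45, 9.38, 10.68 and 9.88 on the CS, C, S and NT arrays at 6 h, 10.98, 11.12, 12.38 and 11.68 at 24 h, and 10.00, 10.25, 10.62 and 10.67 at 48 h. In cells alone it was 12.17, 11.32, 11.12 and 11.53 at 6 h, 13.94, 12.82, 12.35 and 13.07 at 24 h, and 12.75, 12.73, 13.72 and 13.62 at 48 h. The 24 h arrays lay above all 6 h arrays in both channels, and the 48 h arrays overlapped with 6 h in co-culture while lying above it in cells alone. The changes at 24 h were 1.44 ± 0.23 in co-cultured cells and 1.51 ± 0.32 in cells alone. At 48 h they were 0.29 ± 0.23 in co-cultured cells, not called, and 1.67 ± 0.32 in cells alone (adjusted p = 0.00332).

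Cxcl10, which attracts T cells, was called for its change with time in cells grown alone and not in co-cultured cells, and its calls in cells alone were lost without the 3 arrays in doubt (1.74 at 24 h and 1.18 at 48 h). Its level in co-cultured cells was 12.65, 12.09, 13.65 and 12.53 on the CS, C, S and NT arrays at 6 h, 12.76, 12.55, 14.05 and 13.36 at 24 h, and 12.51, 12.70, 13.00 and 12.80 at 48 h, with overlap of both later times with 6 h. In cells alone it was 13.03, 12.81, 12.40 and 12.40 at 6 h, 15.43, 13.75, 14.13 and 15.31 at 24 h, and 13.46, 13.50, 14.75 and 14.81 at 48 h, with no overlap. The changes were 0.45 ± 0.19 at 24 h and 0.02 ± 0.19 at 48 h in co-cultured cells, against 1.99 ± 0.39 and 1.47 ± 0.39 in cells alone, the last not called without the NT or S array of 6 h or 48 h. Ifih1 rose in both channels at both times, with 0.76 ± 0.15 at 24 h and 0.65 ± 0.15 at 48 h in co-cultured cells, the last not called without the NT or C array of 6 h or the C array of 48 h, and 1.101 ± 0.165 and 1.41 ± 0.165 in cells alone.

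Some members rose in both channels. Oasl1, which in mice blocks translation of Irf7, had levels in co-cultured cells of 7.60 to 7.83 at 6 h, 7.83 to 9.05 at 24 h and 8.99 to 10.15 at 48 h. The range in cells alone was 7.86 to 7.99 at 6 h, 8.41 to 9.45 at 24 h and 8.84 to 10.28 at 48 h. At 48 h it rose by 1.71 ± 0.19 in co-cultured cells (adjusted p = 3.47e-05) and by 1.60 ± 0.27 in cells alone (adjusted p = 0.00156), a difference of 0.10 ± 0.13 between the channels. Zbp1 rose at 48 h by 1.04 ± 0.16 in co-cultured cells and 0.97 ± 0.24 in cells alone (0.79 and not called without the 3 arrays in doubt), with a difference of 0.07 ± 0.18. Isg15 rose by 1.06 ± 0.14 at 24 h and 0.68 ± 0.14 at 48 h in co-cultured cells, against 0.89 ± 0.20 and 0.73 ± 0.20 in cells alone. Its calls at 48 h were lost without the NT array of 6 h or 48 h, and in cells alone also without the S array of 48 h. Second probes of Isg15 and Zbp1 had ratios that fell with time. Their mean ratios at 6 and 48 h were -0.54 and -1.41 for Isg15, where the probe used gave -1.06 and -1.11. For Zbp1 they were -0.11 and -0.59, where the probe used gave -0.09 and -0.01. Uba7 had levels of 12.65, 12.49, 12.61 and 12.65 at 48 h in co-cultured cells, all above 11.45, 11.33, 11.63 and 11.23 at 6 h, a change of 1.19 ± 0.09 (adjusted p = 3.62e-06), against 0.52 ± 0.16 in cells alone, which fell short of 1.5-fold.

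Other members fell beside macrophages at 48 h. Samd9l had levels of 11.87, 12.07, 12.27 and 12.50 in co-cultured cells at 48 h, all below 13.20, 12.81, 13.44 and 13.15 at 6 h. In cells alone it had 14.07, 14.11, 14.49 and 14.45 at 48 h and 14.30, 14.20, 14.40 and 14.36 at 6 h, which overlapped. The change was -0.97 ± 0.11 in co-cultured cells (adjusted p = 4.12e-05) and -0.04 ± 0.11 in cells alone. Oas2 (-0.64 ± 0.14) and Eif2ak2 (-0.59 ± 0.10) also fell in co-cultured cells, and both calls were lost without the CS array of 6 h or 48 h, that of Eif2ak2 also without the S array of either time.

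Whether the channels changed differently was tested as the change of the ratio with time. At 24 h over 6 h 1 member, Rsad2, was lower (-1.23 ± 0.33, adjusted p = 0.0439, with 0.724% of all genes lower and 1.74% higher), and 10 members had an unadjusted p under 0.05. Counts at an unadjusted p, here and below, have no share of all genes beside them and are descriptions only. That single call was lost when any of 8 arrays was left out, and 5 members were called without the S array of 24 h. At 48 h over 6 h, 12 of 30 members were lower (12.3% of all genes) and 1 higher (12%). The lowest were Cxcl10 (-1.45 ± 0.46, adjusted p = 0.0199), Rsad2 (-1.44 ± 0.33, adjusted p = 0.00347), Ifit1 (-1.38 ± 0.41, adjusted p = 0.0136), Ifi44 (-1.02 ± 0.28, adjusted p = 0.00999) and Cxcl9 (-1.01 ± 0.25, adjusted p = 0.00507), the last with a signal well above background on only 1 of 4 arrays in Cy5 at 48 h and 2 of 4 in Cy3 at 6 h. Uba7 was higher (0.67 ± 0.16, adjusted p = 0.00368). Of these 12, 2 were called lower at 48 h in co-cultured cells (Eif2ak2 and Samd9l), 7 were called higher in cells alone (Cxcl10, Cxcl9, Ifi44, Ifih1, Ifit1, Ifit2 and Rsad2) and 3 in neither (Ifi35, Parp14 and Xaf1). Only Rsad2, Ifi44, Cxcl9, Samd9l, Ifit2 and Ifih1 kept the call whichever array was left out, and 8 members were called without the S array of 48 h. A second probe of Cxcl9 had mean ratios of 0.10 at 6 h and -0.38 at 48 h, where the probe used gave 0.03 and -0.99. For Xaf1 a second probe stayed level, at -0.56 and -0.59, where the probe used gave -0.59 and -1.25. The call of Ifit1 was lost without the CS array of 6 h, that of Uba7 without the CS array of 48 h, and that of Cxcl10 without the NT or S array of either time. Without the 3 arrays in doubt, Ifi35, Eif2ak2, Parp14 and Xaf1 lost the call. The change was then -0.93 for Cxcl10 and -0.95 for Ifit1, both smaller but still called.

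Counts in single channels moved with the arrays used. In co-cultured cells 11 calls at 24 h became 5 without the 3 arrays in doubt. In cells alone 18 calls at 24 h became 11 without the NT array of that time and 9 without the 3 arrays in doubt, and 13 calls at 48 h became 6 without the NT array of 6 h, 7 without the NT array of 48 h, 6 without the S array of 48 h and 6 without the 3 arrays. Without the 3 arrays, the calls of Xaf1, Oasl1, Zbp1, Dhx58, Usp18 and Ifit3 at 24 h were lost in co-cultured cells. Those of Eif2ak2 and Oas1a in co-cultured cells at 48 h were lost as well. In cells alone those of Irf7, Oas1a, Rtp4, Ifit2, Cxcl9, Dhx58, Oasl1, Ifit3 and Cxcl10 at 24 h and of Irf7, Irf9, Usp18, Ifit2, Zbp1, Cxcl9 and Cxcl10 at 48 h were lost. Left out singly, no array removed the calls of Rsad2, Ifit1, Ifih1, Oasl1 and Zbp1 in cells alone at either time.

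Cortisol was compared over the 6 arrays with cortisol (CS, C) and the 6 without (S, NT), taken as labelled. In co-cultured cells 6 members were lower with cortisol and 0 higher, against 0.948% of all genes lower and 1.62% higher, with a median of -0.35 over the members, against -0.01 over all genes, and 30 of 30 members below 0. The 6 were Rsad2 (-0.84 ± 0.18, adjusted p = 0.0201), Cxcl10 (-0.69 ± 0.15, adjusted p = 0.0214), Oasl2 (-0.68 ± 0.11, adjusted p = 0.0047), Xaf1 (-0.64 ± 0.10, adjusted p = 0.00351), Zbp1 (-0.63 ± 0.13, adjusted p = 0.0184) and Rtp4 (-0.61 ± 0.14, adjusted p = 0.0255). In cells grown alone 0 members were called in the limma fit (0.224% of all genes lower, 0.688% higher), although 28 of 30 were below 0 with a median of -0.27 and 10 had an unadjusted p under 0.05. The ratio called 0 members (0% of all genes lower, 0.0145% higher), with a median of -0.03 and 0 members at an unadjusted p under 0.05. The shares of all genes below 0 or at an unadjusted p under 0.05 are not given here, so these counts of members are descriptions.

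Oasl2, a relative of the OAS enzymes, shows the pattern in co-cultured cells array by array. Its level with cortisol was 12.20 (CS) and 11.77 (C) at 6 h, 12.42 and 11.65 at 24 h, and 11.68 and 11.67 at 48 h. Without cortisol it was 12.48 (S) and 12.39 (NT) at 6 h, 13.05 and 12.94 at 24 h, and 12.40 and 12.20 at 48 h. Both cortisol arrays lay below both others at each time. The same held for Rsad2, Xaf1 and Zbp1, whereas Cxcl10 and Rtp4 overlapped at 6 h. These 6 members were called from the same arrays, so this describes the calls and is no further support for them. At 48 h alone, 28.1% of all genes had both cortisol arrays below both others. The share at each time together was not counted. None of the 6 calls held whichever array was left out: 2 remained without the NT or the S array of 24 h and 0 without the C array of 24 h. Without the 3 arrays in doubt 0 members were called in co-cultured cells at a median of -0.33, whereas 4 were lower in cells alone at a median of -0.56: Oasl2 (-1.002 ± 0.0955), Rtp4 (-0.97 ± 0.13), Xaf1 (-0.81 ± 0.12) and Oas2 (-0.70 ± 0.09). The share of all genes called in that fit is not given here, so these 4 are a description.

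**Figure D4:**
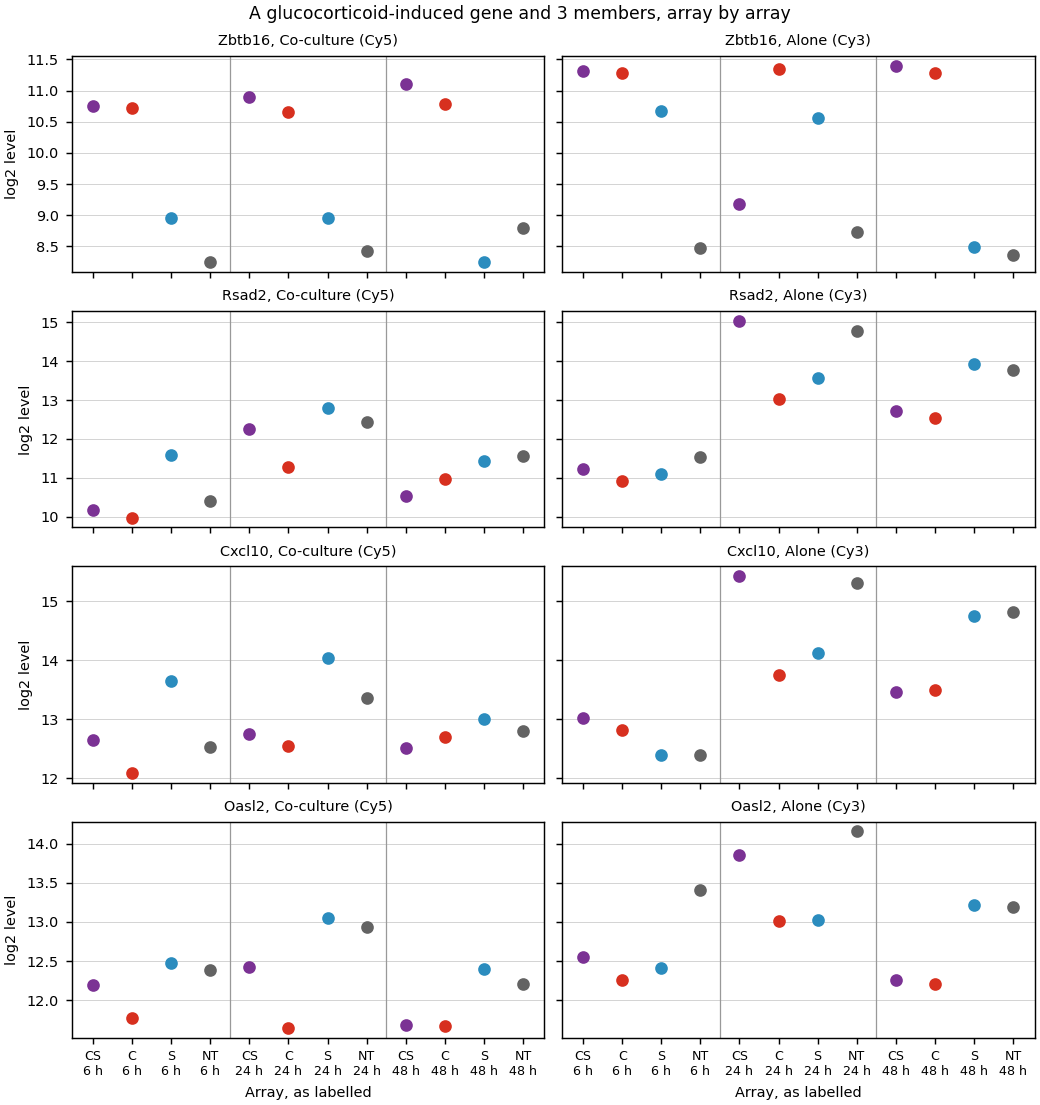
Log2 level of Zbtb16, a glucocorticoid-induced gene, and of the members Rsad2, Cxcl10 and Oasl2 (rows) on the 12 arrays in co-cultured cells (left) and cells grown alone (right), with arrays named as labelled. In cells alone Zbtb16 is high on the S arrays at 6 and 24 h and low on the CS array at 24 h, and the 3 members stand high on the CS array at 24 h beside NT.

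At 48 h both channels carried the hormone signature of their labels. In co-cultured cells the 2 cortisol arrays lay below the 2 others for 20 of 30 members (28.1% of all genes), with a median difference of -0.35, against -0.04 over all genes. In cells grown alone this held for 29 of 30 members, all but Dhx58 (32.1% of all genes), with a median of -0.65, against -0.03 over all genes. Against the NT array of 48 h, the median of the members in co-cultured cells was -0.47 on the CS, -0.28 on the C and 0.04 on the S array. The same median in cells alone was -0.76 on the CS, -0.51 on the C and 0.03 on the S array. The ratio was higher on both cortisol arrays for 26 of 30 members (19.8% of all genes).

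The levels at 48 h show the size of these gaps. Zbp1 stood in co-cultured cells at 10.58 (CS) and 10.68 (C) with cortisol and at 11.56 (S) and 11.48 (NT) without, and in cells alone at 10.25 and 10.68 with cortisol and 11.62 and 11.80 without. Ifit3 stood in cells alone at 12.48 and 12.47 with cortisol and 13.85 and 13.54 without. For Zbp1 and Ifit3 the arrays with cortisol agreed more closely with each other than with those without. The fit at 48 h, which rests on 2 arrays against 2, called Zbp1 lower in co-cultured cells (-0.89 ± 0.12, adjusted p = 0.00588; 1.22% of all genes lower, 0.919% higher), a call lost without the CS array of 48 h. It called 0 members in cells alone (0.00724% of all genes lower), where 16 had an unadjusted p under 0.05, and 0 in the ratio, where 3 had. Without the 3 arrays in doubt, which leaves the 48 h arrays themselves as they were, 0 members were called in co-culture and 14 were lower in cells alone (2.21% of all genes in either direction). The lowest were Cxcl10 (-1.30 ± 0.10), Zbp1 (-1.24 ± 0.14), Ifit3 (-1.22 ± 0.10), Rsad2 (-1.22 ± 0.09) and Oasl1 (-1.19 ± 0.15).

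**Figure D5:**
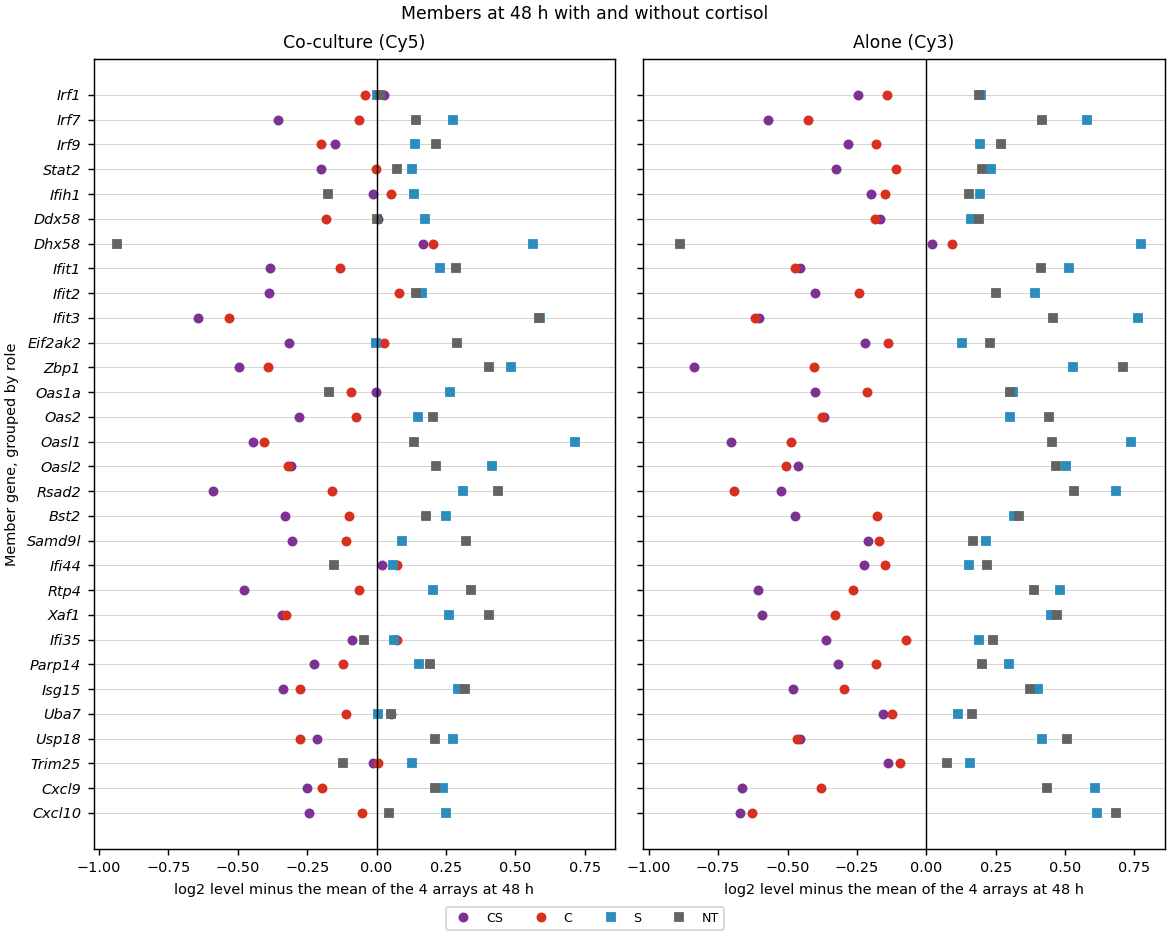
Log2 level of each member on the 4 arrays of 48 h minus their mean, in co-cultured cells (left) and in cells grown alone (right), with circles for CS and C and squares for S and NT. In co-cultured cells the circles lie left of the squares for 20 of 30 members, and in cells alone for every member but Dhx58.

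Whether cortisol acted differently at 48 h than at 6 h was tested as an interaction, which called 0 members in co-cultured cells, in cells alone and in the ratio (0.0652% of all genes higher and 0% lower in co-cultured cells, 0% in either direction in the others). Unadjusted p-values under 0.05 numbered 5, 9 and 1, and 0 members were called without the 3 arrays in doubt either. As labelled, the median cortisol difference in co-cultured cells was -0.18 at 6 h, -0.52 at 24 h and -0.35 at 48 h, and in cells alone -0.16, -0.05 and -0.65. At 24 h in cells alone, where Zbtb16 went against the labels of CS and S, the median deviation of the members from their gene means was 0.88 on the CS, 0.31 on the C, 0.44 on the S and 0.98 on the NT array. Dhx58 was low in both channels of the NT array at 48 h, at 9.03 in co-cultured cells and 9.84 in cells alone, where the other 3 arrays ran from 10.13 to 10.52 in co-cultured cells and from 10.74 to 11.50 in cells alone.

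A few macrophage genes were also lower with cortisol in co-cultured cells. Of 14 that passed the filter 1, Csf1r, was lower over all times (-0.63 ± 0.09, against 0.948% of all genes lower) and 3 were lower at 48 h (1.22% of all genes), Ctss (-2.14 ± 0.25), Csf1r (-0.89 ± 0.12) and Mpeg1 (-0.71 ± 0.13). The summed signal of the list in co-cultured cells at 48 h was 30190 (CS) and 25700 (C) with cortisol and 31260 (S) and 25820 (NT) without, so that the groups overlapped. At that time 11 listed genes were well above background on all 4 arrays in co-cultured cells. Only Fcgr1, C1qa and C1qc were not well above background on any array. In the ratio of co-culture over alone, 7 of the 14 macrophage genes were higher at 6 h (4.39% of all genes) and 2 at 24 h (4.68%). At 48 h 6 were higher (14.6%) and 2 lower (16.9%), the latter near the share of all genes. Their part in the results of the members was not tested.

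Serotonin, compared over the 6 arrays with it (CS, S) and the 6 without (C, NT), called 0 members in co-cultured cells, in cells alone and in the ratio (0% of all genes in each). Unadjusted p-values under 0.05 numbered 7, 0 and 7, and the medians were 0.17, -0.03 and 0.22. Without the 3 arrays in doubt the medians were 0.09, 0.03 and 0.05.

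Other genes of the pathway were examined through fixed lists. Of 25 further interferon-stimulated genes 19 were tested, and 3, 7 and 11 of them were lower in co-culture at 6, 24 and 48 h (5.27%, 3.7% and 16.9% of all genes). Their medians were -0.26, -0.48 and -1.14, while Isg20 alone was higher at 48 h (0.80 ± 0.05, 14.6% of all genes higher). Slfn8 (-2.04 ± 0.17), Ifi27l2a (-1.75 ± 0.13), Trim30a (-1.55 ± 0.14) and Parp12 (-1.51 ± 0.10) were the lowest at 48 h. Relative to 6 h, in co-cultured cells 6 rose and 0 fell at 24 h (5.34% of all genes higher, 3.56% lower). At 48 h 0 rose and 4 fell (13% of all genes higher, 15.7% lower), with Parp12 (-1.35 ± 0.11) the lowest. These 4 are near the share of all genes and are no result about the list. In cells alone 10 rose at 24 h and 6 at 48 h (5.65% and 6.57% of all genes higher), led by Ifi27l2a (1.46 ± 0.18 and 1.82 ± 0.18). At both times 0 fell (5.57% and 7.28% of all genes lower). With cortisol, Ifit3b (-1.26 ± 0.26), Cmpk2 (-0.64 ± 0.17) and Dtx3l (-0.60 ± 0.09) were lower in co-cultured cells (0.948% of all genes), with the 3 arrays in doubt included.

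Ifnb1, which encodes interferon beta, was not well above background on any array of 6 h in either channel. At 24 h it was above background on 4 of 4 arrays in both channels, at least 1.86-fold higher than at 6 h in co-cultured cells and at least 2.35-fold in cells alone, where the bound takes the higher of the signal and the lowest detected signal of each 6 h array. Ifnb1 passed the filter on dim probes only through arrays of 24 and 48 h, so no p-value is given for this change. At 48 h it was above background on 3 arrays of co-cultured cells and 2 of cells alone. Of 14 ligands and receptors 7 were tested, and in the ratio 0 were called at 6 and 24 h and 1 at 48 h, the receptor subunit Ifnar1 (0.75 ± 0.07). At 48 h 14.6% of all genes were higher and 16.9% lower, so that the few calls in the following lists are no result about those lists. Of 13 signalling and restraint genes Stat3 (0.96 ± 0.07) and Socs3, a brake on cytokine receptors (0.74 ± 0.11), were higher at 48 h and 0 lower, and Socs3 was also higher at 6 h (0.94 ± 0.11). Of 13 genes that sense nucleic acid upstream of interferon, Traf3 (1.03 ± 0.08) was higher at 48 h, and Cgas, the sensor of cytosolic DNA (-1.12 ± 0.07), Myd88 (-0.90 ± 0.05) and Tlr4 (-0.74 ± 0.08) were lower. Cgas was also lower at 6 h (-0.79 ± 0.07) and 24 h (-0.63 ± 0.07), while Traf6 was higher at 6 h (0.90 ± 0.09) and 24 h (0.70 ± 0.09) and Traf3 at 6 h (0.64 ± 0.08).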

How the data were processed

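Agilent mouse arrays, 12 in all, compared co-cultured cells (Cy5) with cells alone (Cy3). The authors quantified spots in Agilent Feature Extraction, for which the headers give version 10.7.3.1 whereas the submitters' processing notes name 10.5.1.1. Per spot, the deposited files give linear intensity and local background in each channel and the log10 of the Cy5 to Cy3 ratio. Other columns of the deposited files flag spots that are outlying, saturated or well above background in a channel. The value table deposited by the authors holds the same log10 ratio to within 0.00499, which settles its scale and direction.

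Median signals were corrected with normexp (offset 50) and normalized by loess in limma 3.58.1 (R 4.3.3, statmod 1.5.0). Control spots had weight 0 and were left out with outlier spots and 58 spots whose local background exceeded 5 times the array median. Of 39429 probes, 27508 were named through RefSeq (GRCm38.p6). Probes had to be well above background in either channel on 3 arrays, which 23017 were, and where a gene had several (3415 genes) its brightest was used. Single channels were taken after loess and Aquantile. Models were fitted to all 12 arrays with lmFit and eBayes, either additive in time and treatment (residual degrees of freedom 6) or with time by cortisol and serotonin as a further term (5), two-sided, with adjusted p-values over all 13812 genes tested, and were tested on simulated data. The members, gene lists and alternatives were chosen with earlier results of these data known, including the doubt about 3 arrays, so counts over them are descriptions. Named members were the called ones with the largest sizes, up to 5 each way, and the member with the brightest signal of each role. The number of arrays limits the precision. Promoters were searched and figures drawn in Python 3.11.15 with pandas 2.3.3 and matplotlib 3.10.9.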

Additional observations from a re-analysis of the deposited data

Results flagged for a closer look

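On the 24 h arrays, 7 members had an S array far from the other 3. The co-culture ratio of the S array was -0.03 for Stat2 (others -0.80 to -0.73), -0.02 for Ddx58 (others -0.49 to -0.46), 0.12 for Dhx58 (others -1.14 to -0.93), 0.10 for Ifit3 (others -1.29 to -1.07), 0.28 for Oas2 (others -0.76 to -0.64), 0.02 for Oasl2 (others -1.43 to -1.22) and -0.51 for Usp18 (others -1.70 to -1.53). At 6 h the S array stood apart for Rsad2, at 0.47 with the others between -1.13 and -0.94, and the NT array for Stat2, at -0.91 with the others between -0.08 and 0.00. These 9 were found among 99 groups of 4 arrays examined, where chance marks about 1 in 20. The S arrays at 6 and 24 h are 2 of the 3 whose Zbtb16 level in cells alone did not go with the label, and the part of that in these values was not tested.

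The co-culture ratio differed between 48 and 6 h in 13 members and between 24 and 6 h in 1, by limma's test of the difference between the times.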

How the results depend on the processing

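The counts of called members, higher and lower together, kept within 1.5 times of the reported ones under most alternatives. A count of 0 that stayed 0 was taken as kept. Serotonin and cortisol by time had 0 calls in both channels and the ratio, and cortisol had 0 in cells alone and the ratio. Of the single calls 2586 values held their call and direction, 332 lost the call and 4 turned. The 4 turned at 24 h under median centring without loess, namely Isg15 (0.39), Oas1a (0.22), Trim25 (0.47) and Parp14 (0.11). That centring also gave 8 calls at 6 h, 11 at 24 h, 3 for the ratio at 24 over 6 h, 21 for the ratio at 48 over 6 h, 1 for cortisol by time in the ratio and 2 for cortisol at 48 h in the ratio. It moved the median of all genes by 0.11 for 24 over 6 h, -0.48 for 48 over 6 h, 0.11 for cortisol and -0.15 for serotonin. At 2-fold, 5, 7 and 13 ratio calls were left at 6, 24 and 48 h and 5 for 48 over 6 h; co-cultured cells had 6 at 24 and 3 at 48 h over 6 h, and 0 for cortisol, over all times and at 48 h; cells alone had 11 and 6. Without the 3 arrays in doubt the ratio at 24 over 6 h gave 0, co-cultured cells 5 at 24 h over 6 h, cells alone 9 and 6, cortisol 0 in co-cultured cells and 4 in cells alone, and cortisol at 48 h 0 in co-cultured cells and 14 in cells alone. Array weights gave 9 for cortisol at 48 h in cells alone. The ratio at 24 over 6 h gave 0 with no filter on dim probes or with time alone in the model. The mean of a gene's probes gave 6 in co-cultured cells at 48 over 6 h. The cause was not tested. Leaving out each array in turn gave 11 to 14, 15 to 23 and 19 to 25 ratio calls at 6, 24 and 48 h, 0 to 5 and 8 to 13 for the ratio at 24 and 48 over 6 h, 10 to 15 and 7 to 11 in co-cultured cells, 11 to 21 and 6 to 16 in cells alone, 0 to 7 for cortisol in co-cultured cells, 0 to 1 in cells alone, and 0 to 4 and 0 to 1 at 48 h. Such fits also have fewer residual degrees of freedom. The joint fit of both channels used an intraspot correlation of 0.615 over 13023 genes and moved no count past 1.5 times. No paired analysis was possible because the labels carry no replicate numbers, apart from the pairing of both channels on an array, on which every ratio rests. Cxcl9 and Ifnb1 are limited by signal near background.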
